A study of Homo sapiens with 6 samples.

Results

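The kinase AMPK (AMP-activated protein kinase) is described here through 8 genes, 6 for its subunits and 2 for the kinases that switch it on, out of 60671 gene IDs counted. The genes were taken by name: the catalytic subunits PRKAA1 (alpha-1) and PRKAA2 (alpha-2), the scaffold subunits PRKAB1 (beta-1) and PRKAB2 (beta-2), the nucleotide-sensing subunits PRKAG1 (gamma-1) and PRKAG2 (gamma-2), and the upstream kinases STK11, which encodes LKB1, and CAMKK2. All 8 had counts in each of the 6 libraries and passed the filter on low counts. The libraries hold RNA that came down with an antibody to the myc tag from HEK cells, a line from human embryonic kidney, transfected with calcium phosphate. Of these, 3 are labelled as control (WT.Control, treatment given as untreated) and 3 as a SYNJ2BP AAA mutant (AAA.mito). The sources used here do not say what the control cells express, which residues "AAA" stands for or what "mito" means. The myc antibody, the ribosomal RNA depletion and the library kit were common to both groups. The comparison asks whether more or less RNA of these genes came down with the myc antibody in the mutant libraries than in the control. No library of input RNA is among the 6, so RNA abundance in the cells and recovery by the antibody cannot be told apart.

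AMPK is a heterotrimer of a catalytic alpha, a scaffolding beta and a regulatory gamma subunit. It is activated when an upstream kinase phosphorylates the activation loop of alpha, and AMP or ADP bound to gamma favours that state. LKB1 is the upstream kinase as energy runs low and CAMKK2 when calcium rises. Active AMPK slows lipid and protein synthesis and promotes autophagy and the division of mitochondria. SYNJ2BP is an outer mitochondrial membrane protein that helps to hold PINK1 mRNA on neuronal mitochondria, and AMPK has been reported to phosphorylate it.

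Paralogous subunits could in principle exchange reads, so the longest stretch shared letter for letter by the protein-coding transcripts of each pair is shown, from GENCODE release 29 on GRCh38, written 5′ to 3′ on the coding strand. In the alpha pair it is 24 bases long and codes for part of the glycine-rich loop that holds ATP, at chr5:40798064-40798087 on the minus strand in PRKAA1 and chr1:56645457-56645480 on the plus strand in PRKAA2. In the beta pair it is 20 bases long and codes for part of the glycogen-binding module, at chr12:119674013-119674032 on the plus strand in PRKAB1 and chr1:147166871-147166890 on the minus strand in PRKAB2.
PRKAA1 and PRKAA2: gtcggcaccttcggcaaagtgaag
PRKAB1 and PRKAB2: tacaagttctttgtggatgg
In the gamma pair the longest shared stretch is 12 bases. None of the 3 pairs shares a 50-base stretch, so mature transcripts of paralogs differ within any read of that length. Overlapping genes are a separate matter. PRKAG2 overlaps PRKAG2-AS1 and PRKAG2-AS2, STK11 overlaps CBARP and HMGB2P1, PRKAG1 overlaps DDN-AS1, and PRKAA1 and PRKAB1 each overlap 1 unnamed gene. Whether counting used strand is not given, so part of those counts could belong to the neighbours; PRKAA2, PRKAB2 and CAMKK2 overlap no annotated gene.

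Total counts ran from 11067938 to 61912640 in the control and from 3287218 to 73331652 in the mutant libraries. Genes of families that are silent in most tissues also had counts, so a background density was taken from 404 olfactory receptor genes, which are little transcribed outside the nose. That density accounted for 6.58% to 7.47% of nuclear gene counts in the replicate 3 libraries, 38.1% to 55.5% in replicate 1 and 82.0% to 84.5% in replicate 2. Libraries of the same number deviated from their group means together, with correlations across genes of 0.41, 0.76 and 0.90 for numbers 1, 2 and 3. They are therefore treated as pairs in a second fit. Separate cultures are not named in the labels, and the p-values then measure only the spread between these libraries, which may be technical. Of 5 genes typical of HEK cells (VIM, KRT8, KRT18, NEFL, NEFM), 4 or 5 lay more than 8 times above background in replicate 3, 4 in control and 2 in mutant replicate 1, and 0 in replicate 2. Their summed level was 53.9 to 300.4 CPM (counts scaled to the library's adjusted total) in the control and 45.7 to 145.1 CPM in the mutant. Of 5 markers each of muscle, liver and neurons, 1 was past 8 times background in control replicate 3 (ACTA1), 1 in mutant replicate 3 (SYT1), and 0 in the other 4 libraries.

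Levels were compared between genes per kilobase of gene span, as multiples of the background density of the same library. On this scale PRKAA2 stood highest, with a geometric mean over the 6 libraries of 10.1 times background, and PRKAA1 lowest, with 3.13 times. Between them came PRKAB1 (9.05 times), PRKAB2 (8.05), STK11 (6.43), CAMKK2 (6.42), PRKAG1 (4.75) and PRKAG2 (3.44). The spread between libraries was wider than these gaps: the SD of the log2 level of 1 gene ran from 1.34 for PRKAG2 to 2.44 for PRKAA2. Compared within libraries, no neighbours in this order were separated by more than the SD of their log2 ratio. PRKAA2 was above PRKAB1 in 2 of 6 libraries, PRKAB1 above PRKAB2 in 4, and STK11 above CAMKK2 in 2. PRKAA1 ranked 7 or 8 of the 8 genes in every library, PRKAA2 ranked 1 to 4, PRKAB2 2 to 5 and PRKAG1 4 to 7, while PRKAB1 and STK11 ranged from 1 to 7. The order rests on gene span, of which exons make up 2.10% in PRKAG2 and 45.0% in PRKAB1. In control replicate 3 PRKAG2 had 6769 counts with 6.74 kb of exon, and PRKAB1 had 2381 with 6.25 kb. The order per kilobase of exon can therefore differ. The levels also depend on the genes taken as background. With 157 genes of other silent families they were 3.98 times for PRKAA2, 3.58 for PRKAB1, 3.18 for PRKAB2 and 1.23 for PRKAA1, with none of the 8 past 8 times. In the replicate 3 libraries that set had 22.7 and 54.0 counts per kilobase, against 2.31 and 2.52 for the olfactory receptors. Without its members that overlap another gene, a choice made after seeing the data, it had 2.54 and 2.60, and the levels were 11.3 times for PRKAA2, 10.1 for PRKAB1, 8.99 for PRKAB2 and 3.50 for PRKAA1.

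**Figure D1:**
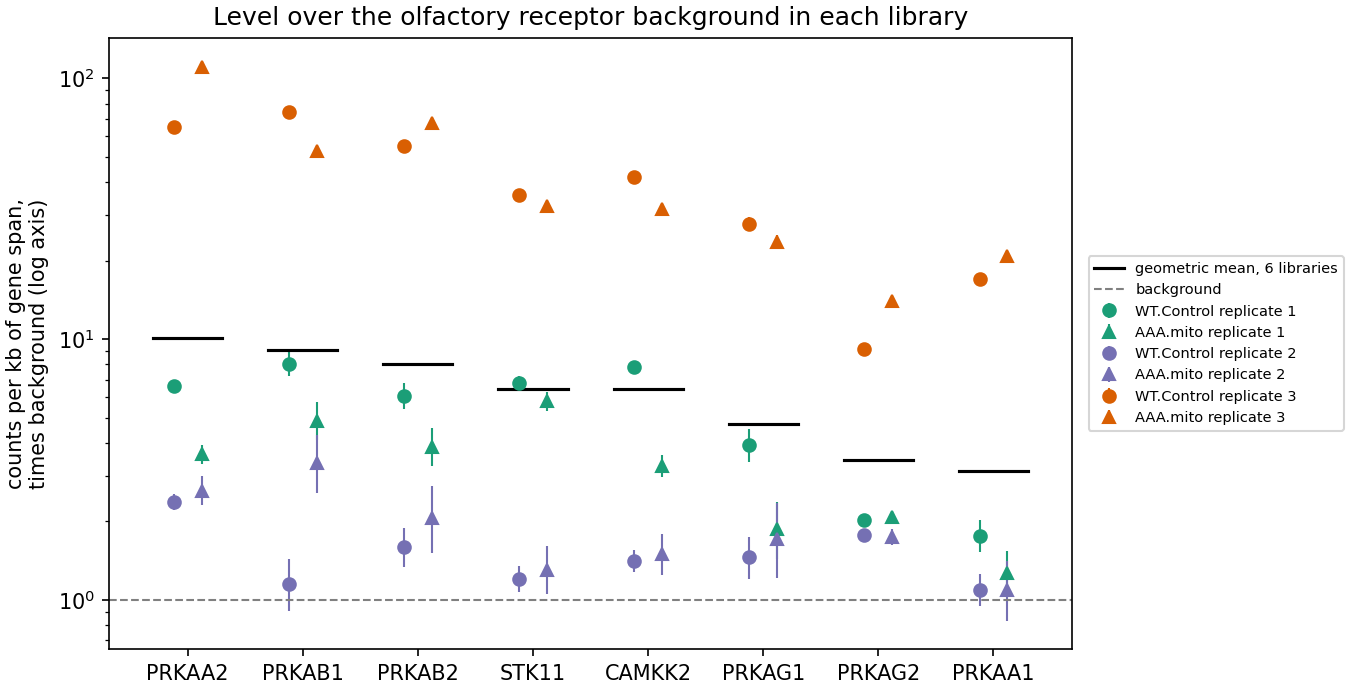
Counts per kilobase of gene span as a multiple of the olfactory receptor background (vertical log axis) for the 8 genes, ordered by geometric mean; circles are WT.Control and triangles AAA.mito libraries, colours are replicate numbers, and thin bars are 95% exact Poisson intervals. Replicate 3 libraries lie between 9.13 and 110.3 times background and replicate 2 libraries between 1.09 and 3.34 times.

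The replicate number set these levels far more than the group did. For PRKAA2 the multiples of background were 6.63, 2.37 and 64.9 in control replicates 1, 2 and 3, and 3.62, 2.63 and 110.3 in mutant replicates 1, 2 and 3. Its level was thus above background in every library, replicate 2 included, where it stood at percentiles 92.7 (control) and 92.0 (mutant) of 19903 protein-coding genes by density. For PRKAA1 they were 1.76, 1.09 and 17.0 in control libraries and 1.27, 1.09 and 20.9 in mutant libraries. In replicate 2 its intervals, 0.95 to 1.25 and 0.83 to 1.42, include the background itself, so PRKAA1 RNA was not detectable over background in either of those libraries. The same held for PRKAB1 in control replicate 2, at 1.15 times background (0.91 to 1.44), while in mutant replicate 2 it lay at 3.34 times (2.56 to 4.28). PRKAG2 spans 321.0 kb, of which exons make up 2.10%, and background was expected to supply 7.17% of its counts in mutant replicate 3 and 57.2% in mutant replicate 2. These intervals cover counting error only and take each count as independent; even numbers made up 51.7% to 75.3% of counts above 100, depending on the library.

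Within a library, the ratio of paralogs does not depend on scaling. After background was subtracted, PRKAA1 held 7.03%, 3.62% and 12.3% of the alpha counts in control replicates 1, 2 and 3, and 5.41%, 3.09% and 9.19% in the mutant. PRKAA2, the alpha subunit best known from muscle and heart, thus supplied most alpha counts in each of the 6 libraries, also per kilobase of exon, where PRKAA1 held 4.34% to 16.6%. Of the muscle markers, CKM, MYH7, MYL1 and MYOD1 lay between 0.36 and 4.22 times background, and ACTA1 between 1.05 and 9.25 times. The share of PRKAA1 was lower in the mutant library in 3 of 3 pairs, by 1.63, 0.54 and 3.07 percentage points. Group means were 7.64% ± 4.35 in the control and 5.89% ± 3.08 in the mutant (SD, n = 3), a difference smaller than either SD. That difference of −1.74 points became 0.57 without control replicate 3, −0.34 without mutant replicate 2, −3.75 without control replicate 2 and −3.39 without mutant replicate 3. The replicate 2 values rest on 17.2 and 4.85 counts of PRKAA1 above background. With background kept in, the share was 12.9%, 20.4% and 12.8% in the control and 16.3%, 18.8% and 9.52% in the mutant, and it was then higher in the mutant in pair 1. The 95% Clopper-Pearson intervals in replicate 3, the deepest, were 12.2% to 13.4% and 9.14% to 9.92%.

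The beta subunits were more even. PRKAB1 held 52.5% and 51.9% of the beta counts in control replicates 1 and 3, and 51.7% and 38.3% in the mutant ones. In replicate 2 the share was 16.5% in the control and 63.8% in the mutant, on 9.86 and 43.4 counts of PRKAB1 above background. Group means were 40.3% ± 20.6 and 51.3% ± 12.7 (SD, n = 3), and without control replicate 2 the difference, 11.0 percentage points in all, turned to −0.93, while it was 4.72 without mutant replicate 2 and between 16.8 and 17.4 without control replicate 1, control replicate 3 or mutant replicate 3. Of the gamma counts PRKAG1, the widely expressed gamma subunit, held 12.8%, 2.98% and 14.5% in control replicates 1, 2 and 3, and 3.93%, 4.71% and 8.27% in the mutant. The group means of 10.1% ± 6.22 and 5.64% ± 2.31 differed by less than the control SD. Their difference of −4.45 points became −8.0 without control replicate 2 and −2.24 without control replicate 3. Per kilobase of exon PRKAG1 held 15.1% ± 9.07 in the control and 8.75% ± 3.46 in the mutant. PRKAG2 spans 321.0 kb against 16.6 kb for PRKAG1, and per kilobase of span PRKAG1 held 62.7% ± 22.0 in the control and 52.3% ± 10.1 in the mutant. Which gamma subunit held more thus depends on the length used. No test was run on these shares, for which 3 libraries against 3 cannot give an exact permutation p below 0.10.

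None of the 8 genes passed the test across all genes. In simulated counts this test found 0% of changed genes up to 8 times without pairs, so there even large changes could go undetected. With pairs it found 16% at 2 times and 100% at 4 times, so smaller changes could go undetected. In edgeR's quasi-likelihood test without pairs 0 of 33375 genes passed an adjusted p of 0.05 (0%), with 25 at an unadjusted p under 0.05, none of the 8 genes among them. With DESeq2 70 genes and with limma-voom 2 reached that unadjusted level, and 0 passed adjustment. With libraries of the same number paired, 469 genes passed (1.41%), 467 of them lower in the mutant (1.4%), and again 0 of the 8. The 8 genes had a median log2 fold change of −0.09 in the paired fit, where the median of all genes tested was −0.08. That of the 4409 genes far above background, taken as more than 8 times on average over the 6 libraries, was −0.51, and of these 8.46% were called lower. PRKAA2, PRKAB1 and PRKAB2 belonged to those genes, with PRKAB2 at 8.05 times just inside and STK11 at 6.43 times just outside. For each of the 8 genes the CPM ranges of the groups overlapped; over all genes tested, every mutant library lay below every control library in 0.446% and above in 0.551%. None of the 8 was lower in all 3 pairs, against 18.2% of genes tested, or higher in all 3, against 9.9%.

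**Figure D2:**
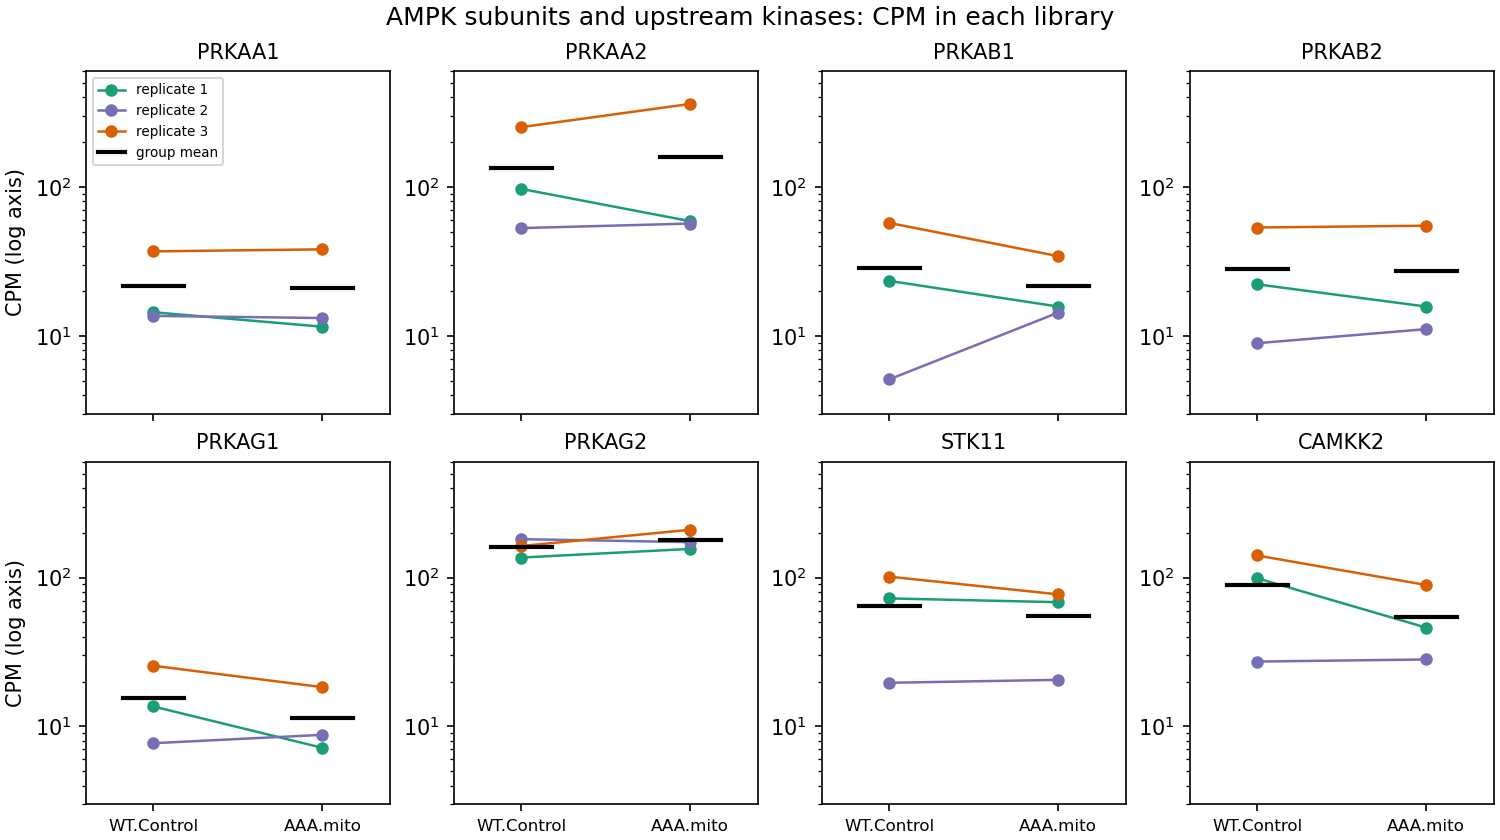
CPM of the 8 genes in each library (vertical log axis), WT.Control on the left and AAA.mito on the right of each panel; lines join libraries of the same replicate number and black bars are group means (n = 3). Replicate 3 is highest in both groups for 7 genes, PRKAG2 being the exception in the control, and the groups overlap in every panel. Background counts are included in these CPM.

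Of the catalytic subunits, PRKAA1 (ENSG00000132356, chromosome 5, 40759379 to 40798374) had 14.4, 13.6 and 36.9 CPM in control replicates 1, 2 and 3 and 11.5, 13.2 and 38.1 CPM in the mutant. PRKAA2 (ENSG00000162409, chromosome 1, 56645322 to 56715335) had 97.1, 52.9 and 252.7 CPM in the control and 58.9, 56.8 and 362.0 CPM in the mutant. Both were highest in the replicate 3 libraries, and the mutant library was the lower one in pair 1 and the higher one in pair 3. The log2 fold change in the paired fit was −0.10 ± 0.24 for PRKAA1 (SE, n = 3 pairs; 95% interval −0.58 to 0.38; edgeR adjusted p = 0.980). For PRKAA2 it was −0.03 ± 0.31 (−0.66 to 0.60; adjusted p = 0.996), with pair differences in log2 CPM of −0.72, 0.10 and 0.52. Changes within these intervals are compatible with the counts, but the intervals are not limits of detection.

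Of the scaffold subunits, which join alpha to gamma and bind glycogen, PRKAB1 (ENSG00000111725, chromosome 12, 119667753 to 119681630) had 23.4, 5.09 and 57.4 CPM in the control and 15.7, 14.3 and 34.3 CPM in the mutant. It was lower in the mutant in pairs 1 and 3, by 0.57 and 0.74 on the log2 scale, and higher in pair 2, by 1.48, where the control count could not be told from background (76 counts against 66.1 expected). Its log2 fold change was −0.41 ± 0.86 without the pairs and −0.07 ± 0.29 with them (95% interval −0.67 to 0.53; adjusted p = 0.988), and −0.49 in the paired fit without pair 2. PRKAB2 (ENSG00000131791, chromosome 1, 147155106 to 147172550) had 22.2, 8.91 and 53.4 CPM in the control and 15.7, 11.1 and 55.0 CPM in the mutant. The PRKAB2 pair differences were −0.49, 0.31 and 0.04. Its paired log2 fold change was −0.06 ± 0.24 (−0.56 to 0.43; adjusted p = 0.987).

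Of the nucleotide-sensing subunits, PRKAG1 (ENSG00000181929, chromosome 12, 49002274 to 49018825) had 13.6, 7.71 and 25.6 CPM in the control and 7.18, 8.77 and 18.3 CPM in the mutant. The mutant library was lower in pairs 1 and 3, by 0.92 and 0.48, and higher by 0.19 in pair 2, where both lay within 1.72 times background. The paired log2 fold change of PRKAG1 was −0.43 ± 0.27 (95% interval −0.98 to 0.11; adjusted p = 0.695). PRKAG2 (ENSG00000106617, chromosome 7, 151556111 to 151877125), whose mutations cause a heart disease with glycogen storage, had 136.4, 181.4 and 163.1 CPM in the control and 156.0, 173.2 and 209.8 CPM in the mutant. It varied least between libraries among the 8 genes, and in CPM its control libraries did not follow the order seen in the others. Background was expected to supply 49.2%, 56.5% and 11.0% of its counts in control replicates 1, 2 and 3. As multiples of background these libraries stood at 2.03, 1.77 and 9.13, with replicate 3 highest. The pair differences were 0.19, −0.07 and 0.36, and the paired log2 fold change was 0.16 ± 0.30 (−0.45 to 0.78; adjusted p = 0.975).

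In the paired fit with TMM factors the value farthest from 0 among the 8 genes was that of an upstream kinase, and it did not pass the test. With factors from genes far above background PRKAG2 was farthest (0.62), and with background subtracted PRKAB1 (0.73). CAMKK2 (ENSG00000110931, chromosome 12, 121237691 to 121298308), the calcium-dependent activator, had 99.1, 27.3 and 140.9 CPM in the control and 46.1, 28.2 and 89.2 CPM in the mutant. It was lower in the mutant in pairs 1 and 3, by 1.10 and 0.66, and differed by 0.05 in pair 2, where it lay at 1.41 and 1.51 times background. Its log2 fold change was −0.59 ± 0.27 with the pairs (95% interval −1.14 to −0.04; unadjusted p = 0.0356; edgeR adjusted p = 0.423) and −0.71 ± 0.78 without them. It did not pass after adjustment over all genes, and 10.0% of all genes tested had an unadjusted p under 0.05 in the paired fit. STK11 (ENSG00000118046, chromosome 19, 1177558 to 1228435), the energy-stress activator, had 72.5, 19.6 and 101.5 CPM in the control and 68.4, 20.6 and 77.2 CPM in the mutant. Its pair differences were −0.08, 0.07 and −0.39, and the paired log2 fold change was −0.15 ± 0.25 (−0.65 to 0.36, edgeR adjusted p = 0.972).

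**Figure D3:**
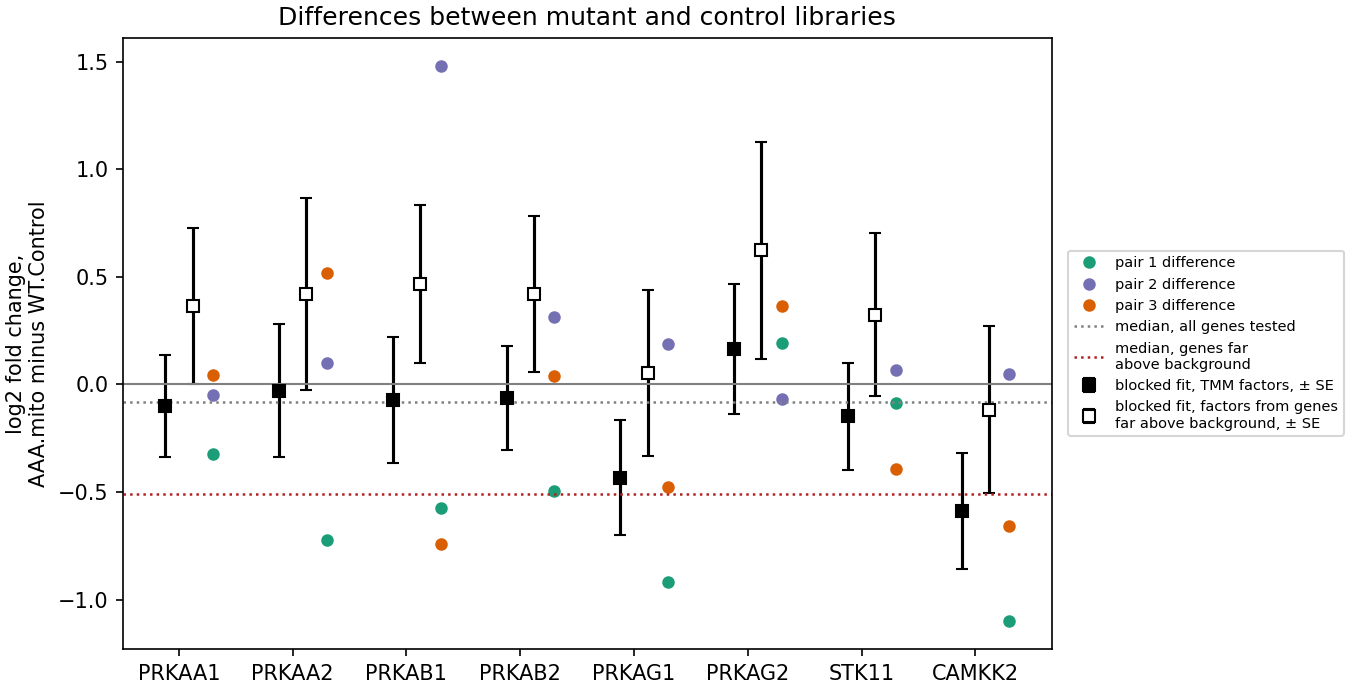
Log2 fold change, AAA.mito minus WT.Control, of the 8 genes in the paired fit with TMM factors (filled squares, ± SE) and with factors taken from genes far above background (open squares, ± SE), with the difference of each pair as coloured points; dotted lines are medians of all genes tested and of genes far above background. With TMM factors CAMKK2 is lowest at −0.59 and PRKAG2 highest at 0.16.

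The sign of most of these values depends on the scaling. TMM factors (trimmed means of M values) were computed over all genes tested, and with factors from genes far above background the median of all genes moved from −0.08 to 0.39 and that of the 8 genes from −0.09 to 0.39. CAMKK2 was then −0.12, PRKAG1 0.05 and the other 6 between 0.33 (STK11) and 0.62 (PRKAG2). Relative to the median of all genes, CAMKK2 and PRKAG1 were lower and PRKAG2 was higher under both scalings. New factors move all genes nearly alike, so this comparison could hardly differ between the scalings. CAMKK2 stayed below 0 and PRKAG2 above 0 in each of the 18 other fits and with background subtracted. None of the 8 genes passed adjustment in any of the 19 fits. The fits without pairs add little here, as in simulated counts the main one found 0% of genes changed 8 times.

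Gene span was a property on which the pair 3 difference varied. Over protein-coding genes tested, the median pair 3 difference was −0.49 for 7002 genes up to 20 kb, −0.17 for 4812 genes of 20 to 50 kb, 0.08 for 3056 genes of 50 to 100 kb and 0.29 for 3586 longer genes. In pair 1 the medians were −0.43, −0.28, −0.15 and −0.00, and in pair 2 they lay between −0.04 and 0.01. Among protein-coding genes far above background, to which PRKAA2, PRKAB1 and PRKAB2 belonged, the pair 3 medians also went up with span, from −0.81 to 0.10, while those of pair 1 went down, at −0.84, −0.96, −1.11 and −1.23. PRKAB1 (13.9 kb) and PRKAG1 (16.6 kb) had pair 3 differences of −0.74 and −0.48, and the long PRKAG2 had 0.36, all of the sign of their class. PRKAA2 (70.0 kb) lay above its class at 0.52, PRKAA1 (39.0 kb) above its class at 0.05, and PRKAB2 (17.4 kb) above its own at 0.04. STK11 (50.9 kb) and CAMKK2 (60.6 kb) lay below theirs at −0.39 and −0.66. The part of span in the differences of the 8 genes was not tested.

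**Figure D4:**
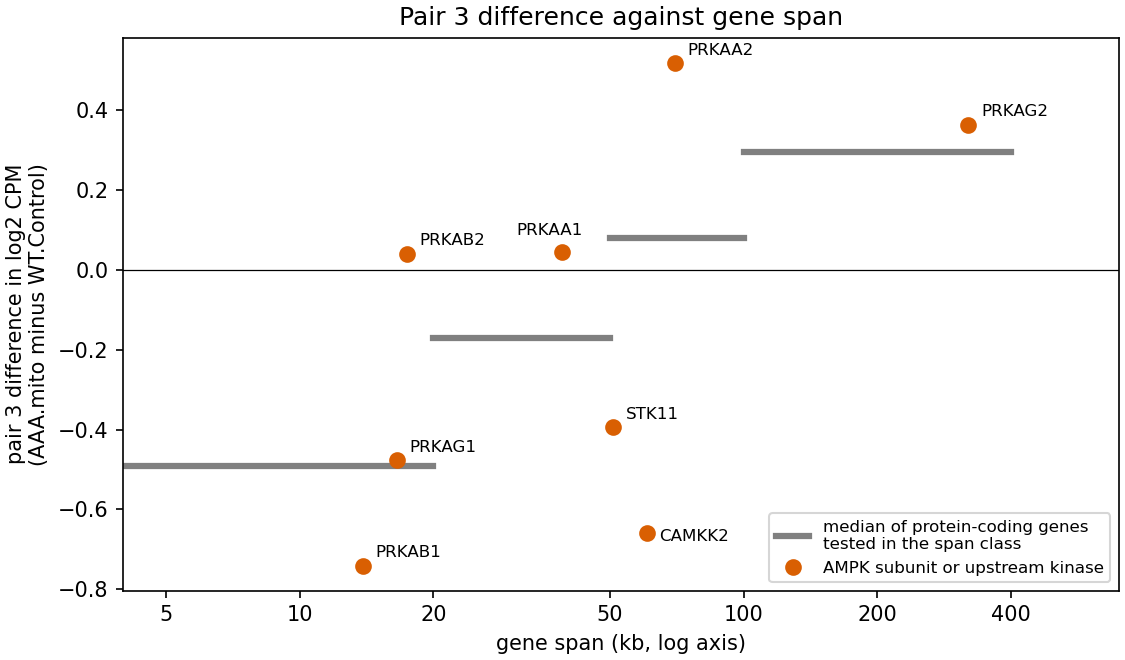
Pair 3 difference in log2 CPM, AAA.mito minus WT.Control, against gene span (horizontal log axis) for the 8 genes; grey bars are medians of protein-coding genes tested in 4 span classes, of which the outer ones have no limit below 20 and above 100 kb. PRKAB1, PRKAG1 and PRKAG2 have the sign of their class, and STK11 and CAMKK2 lie below theirs.

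Other genes of the pathway were read from 4 lists: 7 further upstream kinases, LKB1 partners and the gamma-3 subunit, 12 AMPK-related kinases that LKB1 also activates, 22 substrates and 10 feedback regulators. Of these 51 genes 50 were tested, and 2 were called lower (4.00%) and 0 higher in the paired fit, against 1.4% and 0.00599% of all genes. Of genes far above background, 8.46% were called lower, and 6 of the 50 belonged to those. SIK1 was not tested: it had 0 to 6 counts a library, and reads of its near-identical copy SIK1B may have been dropped or split. The list medians in the paired fit were −0.20, −0.07, −0.22 and 0.08. Among the upstream genes CAMKK1, the paralog of CAMKK2, fell by 1.03 ± 0.26 (SE, n = 3 pairs; edgeR adjusted p = 0.0341) and was lower in 3 of 3 pairs. CAMKK1 had 64.7, 17.6 and 91.2 CPM in the control and 25.7, 15.9 and 32.9 CPM in the mutant, and lay within 1.59 times background in replicate 2. STRADA, the pseudokinase that activates LKB1, had −0.71 ± 0.27 (edgeR adjusted p = 0.264) and is named after its value was seen. STRADA overlaps MAP3K3 and LIMD2, among others, and lay at 1.64 and 1.73 times background in control and mutant replicate 2. PRKAG3, the gamma subunit of skeletal muscle, lay at 0.62 to 1.62 times background.

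**Figure D5:**
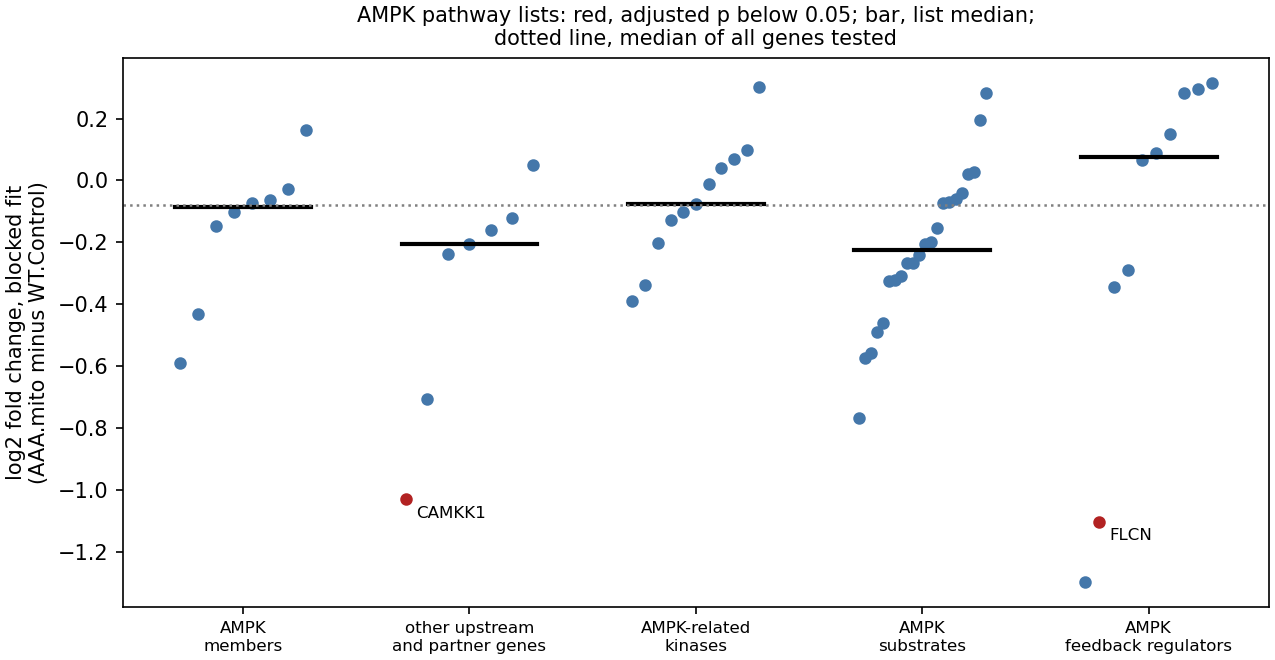
Log2 fold change, AAA.mito minus WT.Control, in the paired fit for the tested genes of the AMPK list and of 4 further pathway lists; red points passed an adjusted p of 0.05, black bars are list medians and the dotted line is the median of all genes tested (−0.08). CAMKK1 and FLCN are the 2 genes called, both lower in the mutant.

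Among the feedback regulators FLCN, the folliculin tumour suppressor that restrains AMPK signalling with its FNIP partners, had −1.10 ± 0.28 (edgeR adjusted p = 0.0318). FLCN had 140.2, 21.7 and 166.2 CPM in the control and 44.7, 15.2 and 79.4 CPM in the mutant, lower in 3 of 3 pairs, and it overlaps MPRIP. SESN2, a stress-induced sestrin that promotes AMPK activity, had a larger value of −1.30 ± 0.37 that did not pass (adjusted p = 0.0720) and is named after it was seen. The calls of CAMKK1 and FLCN rest on the pairing and the scaling: the adjusted p was 1.00 for each without the pairs, 0.0561 and 0.0594 with pairs and upper quartile factors, and 0.670 for each with factors from genes far above background. Both were also lost when pair 1, 2 or 3 was left out, with adjusted p of 0.776, 0.10 and 0.853 for CAMKK1 and 1.00, 0.429 and 0.534 for FLCN. The log2 fold changes were then −0.93, −1.23 and −0.78 for CAMKK1 and −0.88, −1.19 and −1.13 for FLCN, and without the pairs −1.21 and −1.23. With factors from genes far above background they were −0.53 and −0.62. No substrate passed. The smallest p-value there was that of MTFR1L, a mitochondrial fission regulator (−0.77 ± 0.26, edgeR adjusted p = 0.172). Among the AMPK-related kinases BRSK1 (−0.39 ± 0.24) and BRSK2 (−0.34 ± 0.25) had the smallest p-values, and neither passed.

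The pattern over libraries was shared with many genes. By log2 CPM, the gene most like each of the 8 was RFLNA for PRKAA1, APAF1 for PRKAA2, GRHPR for PRKAB1, ZNF14 for PRKAB2, ZNF839 for PRKAG1, CD200R1L-AS1 for PRKAG2, ZNF580 for STK11 and ZNF672 for CAMKK2. Their Pearson r over the 6 libraries lay between 0.993 and 1.00. The points share the library differences in depth and background, and r exceeded 0.95 for 0.298% of 17787 genes with PRKAG2 and for 17.0% with PRKAB2, so these names are a description only.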

How the data were processed

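Reads of RNA recovered with a myc antibody were counted per gene in 6 libraries, grouped by sample title into 3 WT.Control and 3 AAA.mito. The authors deposited raw counts that are not normalized. STAR 2.7.6a, FastQC and featureCounts are listed in the submitters' processing notes; the build, annotation and strand setting they used are not stated there. Symbols came from a table of gene IDs (60401 of 60671 matched) and positions from GENCODE release 29 on GRCh38 (58453 matched).

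The main test was edgeR 4.0.16 in R 4.3.3, with default filterByExpr, TMM factors, the quasi-likelihood F test and Benjamini-Hochberg adjustment over all genes tested (threshold 0.05). It had no block; an alternative fit had the replicate number as a block. That pairing rests on the correlation check given in the results (best match with the same number for all 6 libraries), not on the labels. Further alternatives were DESeq2 1.42.0, limma-voom 3.58.1, other scaling factors, no filter, left-out libraries and, for levels, background subtraction. Each SE equals the log2 fold change over the square root of its F statistic, and a prior count of 1 entered log2 CPM. Background is the count density of olfactory receptor genes times gene span.

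On simulated counts for 32114 genes of this comparison, the fit without pairs found 0% of the 50 genes changed by 1.5 times, and likewise 0% at 2, 4 and 8 times. The paired fit found 2%, 16%, 100% and 100% of them, and made 3 false calls. Changes were applied to whole counts, background included, with a single dispersion for all genes. The changed genes were drawn only from those with a mean expected count above 50, so recovery at lower counts was not tested.

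The 8 genes were always named. Of each further list, genes that passed were named, or else the 2 with the smallest p in the paired fit; some items under these rules are not reported here. The gene most like each of the 8 had the highest Pearson r among genes with an average log2 CPM of at least 2. The 8 genes and the lists were chosen with earlier results of these data known.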

Additional observations from a re-analysis of the deposited data

How the results depend on the processing

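Without the replicate block, 0 genes passed under each scaling, filter and tool tried and with each library left out. With the block 469 passed, with upper quartile factors added 312, with factors from genes far above background 4, and with pair 1, 2 or 3 left out 37, 259 and 0. The count among the 8 genes was 0 in every fit, so the block changed no call there; of the other named genes it changed CAMKK1 (−1.03) and FLCN (−1.10). CAMKK2 (−1.22 to −0.03), PRKAG2 (0.05 to 0.62), CAMKK1, FLCN, SESN2 and STRADA kept their sign in all 18 alternative fits.

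The log2 fold changes of the other 6 of the 8 genes and of BRSK1, BRSK2 and MTFR1L turned sign in some fits, and except for the scaling, which moves all genes, the cause was not tested. Upper quartile factors gave PRKAA1 0.094, PRKAB2 0.13 and STK11 0.014. Factors from genes far above background gave PRKAA1 0.17, PRKAB1 0.58, PRKAB2 0.41, PRKAG1 0.055, STK11 0.32, BRSK1 0.0545 and BRSK2 0.11. No filter gave PRKAA1 0.11 and PRKAB2 0.13, and limma-voom gave PRKAB1 0.074 and PRKAB2 0.0475. The block gave PRKAA2 −0.0285. The block with upper quartile factors gave PRKAA1 0.062, PRKAB1 0.10, PRKAB2 0.10 and STK11 0.0155. The block with factors from genes far above background gave PRKAA1 0.36, PRKAB1 0.47, PRKAB2 0.42, PRKAG1 0.0545, STK11 0.33, BRSK1 0.10 and BRSK2 0.14. With background subtracted PRKAA2 was −0.074, PRKAB1 0.73 and PRKAB2 0.042. The block without pair 1 gave PRKAB1 0.17 and PRKAB2 0.10, without pair 2 PRKAA1 0.048, and without pair 3 PRKAA2 −0.33 and PRKAB1 0.37.

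With each library left out, without the block, the range was −0.79 to 0.78 for PRKAA1, −1.19 to 1.32 for PRKAA2, −0.92 to 0.77 for PRKAB1, −1.04 to 1.03 for PRKAB2, −0.95 to 0.28 for PRKAG1, −0.66 to 0.44 for STK11, −0.87 to 0.019 for BRSK1, −0.99 to 0.37 for BRSK2 and −2.12 to 0.64 for MTFR1L. Depth and background limit replicate 2 most, where PRKAA1 could not be told from background in either group.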
